A study of Mus musculus with 11 samples.

Results

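Voltage-gated calcium channels open when the membrane depolarises and let calcium into the cell, and the alpha1 subunit forms the pore and the voltage sensor. The 8 alpha1 genes followed here, Cacna1a, Cacna1b, Cacna1c, Cacna1d, Cacna1e, Cacna1g, Cacna1h and Cacna1i, were taken by their symbols from all 11 count files, and are 8 of the 24421 gene rows there. All 8 were among the 14982 genes with enough counts to be tested. In the hippocampus of mice exposed in the womb to particulate matter (PM), 6 of the 8 fell and none rose against vehicle. Of all tested genes 36.4% were lower and 32.7% higher, and of the longest genes, among which all 8 lie, 70.5% were lower. Cacna1e fell most, 5.1-fold, and also has the greatest exon length of the 8. Once the change shared by genes of like length and GC content was removed, Cacna1e was at a log2 fold change of -0.9 and Cacna1d at -0.88. Cacna1g and Cacna1h did not pass the test over all libraries, and their log2 fold changes had opposite signs in the 2 sets of libraries.

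Hippocampus was compared between 6 PM libraries and 5 vehicle libraries. In the PM group, dams were given PM at 200 µg per kg by the nose on days 9, 12 and 15 of gestation, and in the vehicle group normal saline. Offspring were born on day 21, and their hippocampus was taken at 14 to 18 weeks. No transgene or deletion is named for either group, and strain and sex are not in the labels used here. The libraries fall into 2 sets, since the library numbers restart and a treatment protocol was entered for the later one alone. The first set has PM replicates 1 to 3 and vehicle replicates 1 to 3. The second has PM replicates 4 to 6 and vehicle replicates 4 and 5. The treatment protocol of the second set names PM for the vehicle libraries too, and the groups were taken from the titles and the treatment field. No label ties a library to an animal or a litter. The p-values reflect how much these libraries vary, and that variation may be technical.

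In neurons the Cav2 channels, with Cacna1a (Cav2.1, P/Q-type), Cacna1b (Cav2.2, N-type) and Cacna1e (Cav2.3, R-type), sit largely at presynaptic terminals, where the P/Q- and N-type channels trigger transmitter release; R-type channels are also found in dendrites and spines. The Cav1 or L-type channels, with Cacna1c (Cav1.2) and Cacna1d (Cav1.3), sit mainly on cell bodies and dendrites and couple activity to gene transcription. The Cav3 or T-type channels, with Cacna1g (Cav3.1), Cacna1h (Cav3.2) and Cacna1i (Cav3.3), open at low voltage and support burst firing. Cav1 and Cav2 pores assemble with beta and alpha2delta subunits, whereas Cav3 pores can work without them.

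The windows upstream of 2 of these genes are shown because their RefSeq start lies within 2 bases of the start in the gene annotation. Both genes were lower in PM over all libraries, with no overlap of the groups for Cacna1b and some overlap for Cacna1i. Each run holds the 250 bases before the RefSeq transcription start on GRCm38.p6, 5′ to 3′ on the gene's strand. The Cacna1b window is chr2:24763153-24763402, minus strand, and that of Cacna1i is chr15:80286988-80287237, plus strand. Capitals mark the GC box, GGGCGG, searched on both strands.
Cacna1b: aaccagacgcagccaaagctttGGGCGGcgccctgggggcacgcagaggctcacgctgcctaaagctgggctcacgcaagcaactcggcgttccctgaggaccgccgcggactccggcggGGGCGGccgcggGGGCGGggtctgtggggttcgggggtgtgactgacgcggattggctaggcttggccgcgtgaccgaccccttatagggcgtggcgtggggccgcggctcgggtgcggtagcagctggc
Cacna1i: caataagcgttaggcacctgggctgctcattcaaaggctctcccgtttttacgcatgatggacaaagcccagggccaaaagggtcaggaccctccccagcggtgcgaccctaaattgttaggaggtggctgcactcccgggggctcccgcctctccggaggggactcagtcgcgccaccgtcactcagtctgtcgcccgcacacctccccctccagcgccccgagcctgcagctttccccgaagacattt
The Cacna1b window held 3 GC boxes and 29 CpG, and the Cacna1i window held 0 GC boxes and 16 CpG. A GC box was present in 32.7% of 32851 windows of the same length, whose median CpG count was 6. A window was given for 5 of the 8 genes, Cacna1b, Cacna1c, Cacna1d, Cacna1e and Cacna1i, and not for Cacna1a, Cacna1g and Cacna1h. These are descriptions of the letters in each window and were not tested against the expression values.

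On GRCm38, with GENCODE release M21, Cacna1a lies on chromosome 8 from 84388440 to 84640246 on the plus strand. Cacna1b lies on chromosome 2 from 24603887 to 24763152, and Cacna1e on chromosome 1 from 154390731 to 154884501, both on the minus strand. Cacna1c lies on chromosome 6 from 118587240 to 119196418, and Cacna1d on chromosome 14 from 30039939 to 30491455, both on the minus strand. Of the T-type genes, Cacna1g lies on chromosome 11 from 94408391 to 94474198 and Cacna1h on chromosome 17 from 25374285 to 25433783, both on the minus strand, and Cacna1i on chromosome 15 from 80287238 to 80398279 on the plus strand. The exons of all transcripts together covered 25228 bases for Cacna1e, 21191 for Cacna1c, 12621 for Cacna1d and 11418 for Cacna1a. They covered 10137 bases for Cacna1g, 9942 for Cacna1b, 9862 for Cacna1i and 9763 for Cacna1h. Cacna1d shares 589 exon bases with Chdh, a choline dehydrogenase gene on the opposite strand, which averaged 5.92 CPM in PM and 9.97 CPM in vehicle libraries. Cacna1h shares 158 exon bases with Tpsg1, on the opposite strand, which had 23 counts over the PM and 13 over the vehicle libraries. Cacna1a shares 435 exon bases with Gm16183, an antisense gene with no row in the count files. Whether counting used the strand is not given in the sources, and reads of these stretches cannot be assigned to 1 gene of each pair.

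The libraries differed between groups beyond these genes. Counts assigned to genes were 10938521 to 17763893 per PM library and 6012116 to 12496651 per vehicle library, and the 8 genes together took 0.0445% to 0.136% of them in PM and 0.234% to 0.266% in vehicle libraries. Reads without an annotated feature made up 18.8% to 34% of all counts in PM and 60.9% to 62% in vehicle libraries. The ribosomal RNA precursor Rn45s took 12.4% to 17% of gene counts in first-set PM, 4.01% to 8.14% in second-set PM and 0.792% to 2.17% in vehicle libraries. Lars2 took 0.337% to 0.823% in PM and 0.00136% to 0.00773% in vehicle libraries, and Malat1 0.0827% to 0.807% in PM and 2.12% to 2.33% in vehicle. Reads without a unique alignment made up 7.22% to 9.9% of all counts in PM and 4.21% to 4.75% in vehicle libraries. Ambiguous reads made up 1.21% to 1.42% in PM and 0.538% to 0.582% in vehicle libraries. Summed levels of 5 neuron markers (2 higher, 2 lower and 1 not passing) were 4292 to 5583 CPM in PM and 5795 to 6378 CPM in vehicle libraries, with none at 0. The median log2 fold change of these neuron markers was -0.01. With the change shared by genes of like length and GC content removed, 3 were higher and 0 lower, with a median of 0.41. Summed levels also lay apart for CA2 and CA3 pyramidal markers (2 of 4 higher, 253 to 371 CPM in PM and 149.6 to 209.5 CPM in vehicle) and microglia markers (3 of 5 higher, 194 to 271 CPM in PM and 161 to 183 CPM in vehicle). The same held for oligodendrocyte precursor markers (1 of 2 lower, 49.9 to 66.8 CPM in PM and 75.6 to 85.8 CPM in vehicle) and pituitary markers (both of the 2 tested higher, 2.45 to 21.1 CPM in PM and 0.654 to 1.35 CPM in vehicle). The summed levels overlapped for CA1 pyramidal markers (2 of 4 higher, 393 to 622 CPM in PM and 394 to 480 CPM in vehicle), for interneuron markers (2 of 6 higher and 1 lower, 473 to 629 CPM in PM and 622 to 696 CPM in vehicle) and for oligodendrocyte markers (4 of 5 higher, 3829 to 8896 CPM in PM and 3591 to 4572 CPM in vehicle), as they did for dentate granule cell, astrocyte, endothelium, thalamus, striatum and muscle markers. Choroid plexus markers ranged from 32.1 to 2477 CPM in PM and from 70 to 1241 CPM in vehicle libraries, with 1 of 4 lower. The part of any of these in the results below was not tested.

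Over all libraries, with the set as covariate, 6 alpha1 genes fell, 0 rose and 2 did not pass (edgeR quasi-likelihood test, Benjamini-Hochberg adjusted p under 0.05 over all tested genes). By the same test 36.4% of all tested genes were lower and 32.7% higher. The median log2 fold change, PM over vehicle, was -1.15 over the 8 genes and -0.04 over all tested genes. For 5 of the 8, Cacna1a, Cacna1b, Cacna1c, Cacna1d and Cacna1e, every PM library lay below every vehicle library, as for 28.1% of tested genes, and for none did every PM library lie above, as for 24.3% of tested genes. In bulk tissue, fewer cells of a type and less RNA per cell cannot be told apart. Levels are given as CPM, a gene's counts relative to the size of its library, with sizes scaled by TMM, a method that aligns libraries on the bulk of their genes. Log2 change means the log2 fold change.

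**Figure D1:**
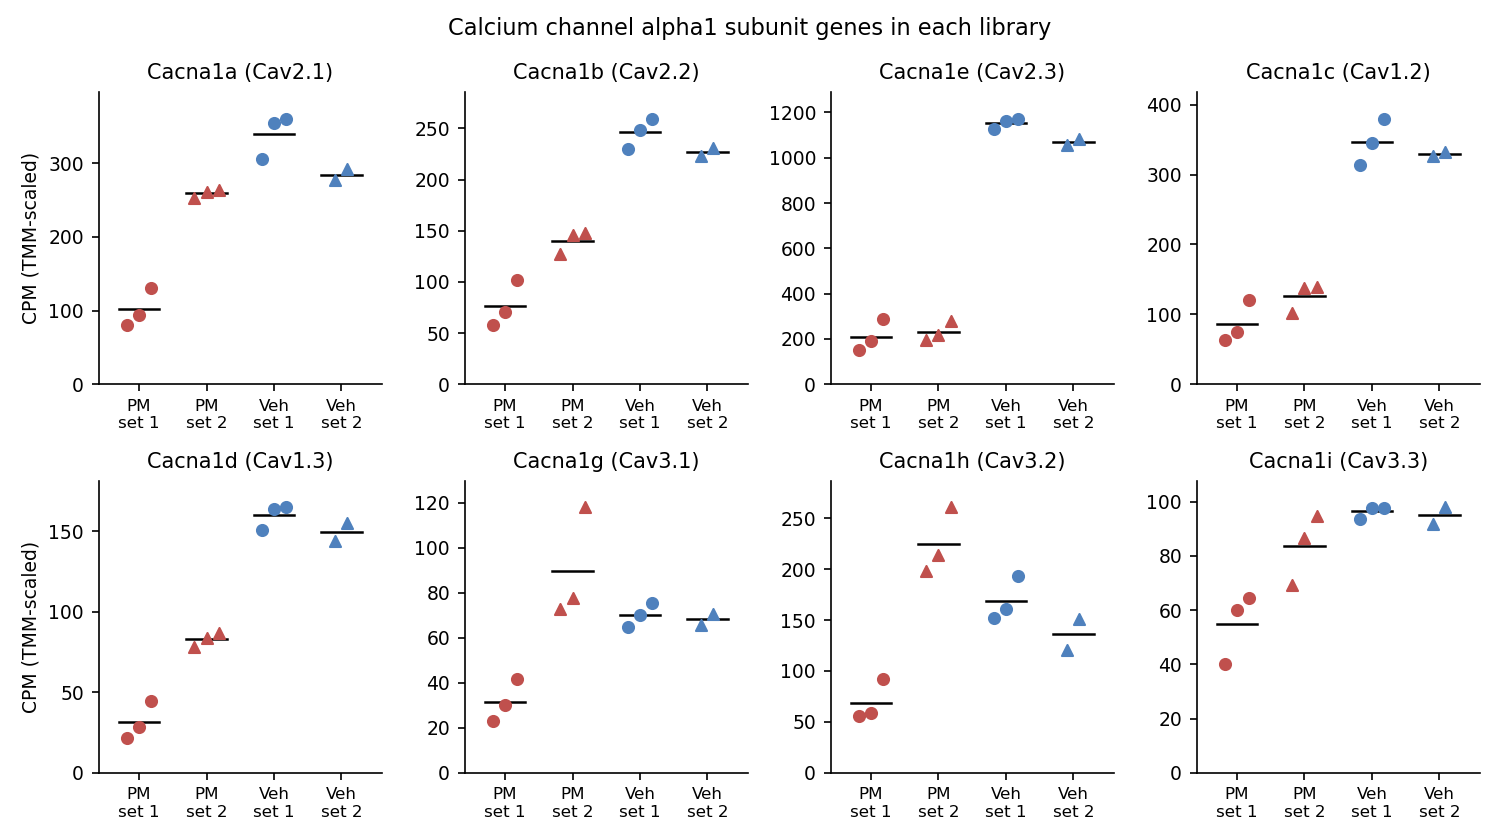
Levels of the 8 alpha1 subunit genes in each library, in CPM, with PM in red and vehicle (Veh) in blue, circles for the first set, triangles for the second and lines for the mean of each set; points are sorted by value. For Cacna1e all 6 PM libraries lie at or below 288 CPM and all 5 vehicle libraries at or above 1057 CPM, whereas second-set PM libraries of Cacna1h lie above every vehicle library.

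Among the Cav2 genes, Cacna1e had the highest level per kilobase in vehicle libraries and fell most in PM. Its first-set levels were 288, 189.9 and 151 CPM in PM replicates 1 to 3, against 1125, 1161 and 1173 CPM in vehicle replicates 1 to 3. Its second-set levels were 195, 217 and 279 CPM in PM replicates 4 to 6, against 1085 and 1057 CPM in vehicle replicates 4 and 5. The PM libraries of both sets overlapped with each other and lay far under all vehicle libraries. The mean was 220.1 ± 53.7 CPM in PM (SD, n = 6) and 1120.2 ± 49.1 CPM in vehicle libraries (SD, n = 5), a log2 fold change of -2.35 (SE 0.15, edgeR adjusted p = 2.008e-08).

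Cacna1b, the N-type pore, had 102, 70.6 and 58.1 CPM in first-set PM libraries, against 259.7, 229.6 and 249 CPM in first-set vehicle libraries. In the second set it had 146, 127 and 148 CPM in PM, against 223 and 231 CPM in vehicle libraries. Second-set PM libraries lay between first-set PM libraries and vehicle, with no overlap of the groups. Its mean was 109 ± 38.2 CPM in PM and 238 ± 15.2 CPM in vehicle libraries, 2.38-fold lower in PM (log2 change -1.25, SE 0.19, edgeR adjusted p = 4.496e-05).

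Cacna1a, the P/Q-type pore, had 130.3, 94.3 and 80.1 CPM in first-set PM libraries, against 354, 306 and 360.4 CPM in vehicle. Second-set levels were 261, 264 and 252 CPM in PM, against 277 and 292 CPM in vehicle libraries. The gap to vehicle was wide in the first set and narrow in the second, where the highest PM and the lowest vehicle library were 264 and 277 CPM. Over all libraries Cacna1a was 2.08-fold lower, with 180.4 ± 88 CPM in PM and 318 ± 37.3 CPM in vehicle libraries (log2 change -1.06, SE 0.26, edgeR adjusted p = 0.003064).

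Both L-type genes fell in PM in both sets. Cacna1c, the more common L-type pore of brain, had 121, 74.3 and 63.8 CPM in first-set PM libraries, against 380.2, 314 and 345 CPM in vehicle. Its second-set levels were 138, 102 and 139 CPM in PM, against 326 and 332 CPM in vehicle libraries. Every PM library was at or below 139 CPM and every vehicle library at or above 314 CPM. The mean of Cacna1c was 107 ± 32.2 CPM in PM and 339 ± 25.4 CPM in vehicle libraries, 3.32-fold lower (log2 change -1.73, SE 0.17, edgeR adjusted p = 1.146e-06).

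Cacna1d, whose channel opens at lower voltage than that of Cacna1c, had 44.4, 28.2 and 21.4 CPM in first-set PM libraries, against 165, 151 and 164 CPM in vehicle. In second-set libraries it had 78.3, 87.1 and 83.8 CPM in PM, against 155 and 144 CPM in vehicle. The 3 second-set PM libraries were all above the 3 first-set PM libraries, and both were below vehicle. Cacna1d averaged 57.2 ± 29.4 CPM in PM and 156 ± 8.74 CPM in vehicle libraries, 3.25-fold lower (log2 change -1.7, SE 0.27, edgeR adjusted p = 9.209e-05).

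The 3 T-type genes overlapped between the groups. Cacna1i, the T-type pore known best from the thalamic reticular nucleus, had 64.3, 60 and 40 CPM in first-set PM libraries, against 93.7, 97.7 and 97.7 CPM in vehicle. Second-set levels of Cacna1i were 94.7, 69.2 and 86.5 CPM in PM, against 91.9 and 98 CPM in vehicle libraries. PM replicate 4 alone lay within the vehicle range. With 69.1 ± 19.5 CPM in PM and 95.8 ± 2.82 CPM in vehicle libraries, Cacna1i was 1.45-fold lower (log2 change -0.54, SE 0.15, edgeR adjusted p = 0.005258).

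Cacna1g, the T-type pore of thalamic relay neurons, had 41.5, 30 and 22.8 CPM in first-set PM libraries, against 70.2, 64.8 and 75.6 CPM in vehicle. In the second set it had 72.8, 77.6 and 118 CPM in PM, against 70.6 and 65.8 CPM in vehicle libraries. First-set PM libraries lay below all vehicle libraries, and second-set PM libraries lay above both vehicle libraries of their own set. Over all libraries the change did not pass, with 60.5 ± 36.1 CPM in PM and 69.4 ± 4.33 CPM in vehicle (log2 change -0.49, SE 0.28, edgeR adjusted p = 0.1382). It passed without vehicle replicate 5 (-0.72, edgeR adjusted p = 0.03784) and without PM replicate 6 (-0.59, edgeR adjusted p = 0.03011).

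Cacna1h, a T-type pore that is blocked by low concentrations of nickel, had 92.3, 58.5 and 56 CPM in first-set PM libraries, against 161, 152 and 193 CPM in vehicle. Its second-set levels were 198, 261 and 214 CPM in PM, against 151 and 121 CPM in vehicle libraries. Vehicle levels thus lay between those of the 2 PM sets. The mean was 147 ± 88.5 CPM in PM and 156 ± 26.1 CPM in vehicle libraries (log2 change -0.44, SE 0.35, edgeR adjusted p = 0.275), and without vehicle replicate 5 the change passed (-0.77, edgeR adjusted p = 0.04645).

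The family's other pore genes were scarcely counted. Cacna1f, the L-type pore of the retina, had 47 counts over the PM and 86 over the vehicle libraries and was lower in PM (log2 change -1.74, SE 0.48, edgeR adjusted p = 0.005531). Cacna1s, the pore of skeletal muscle, had 31 counts over the PM and 21 over the vehicle libraries, too few to be tested.

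Set by set, all 8 alpha1 genes fell in the first set, where 38.9% of tested genes were lower and 32.1% higher. Their median log2 fold change there was -1.71, and that of all tested genes was -0.09. The falls ran from -2.46 for Cacna1e (SE 0.2, edgeR adjusted p = 2.048e-07) to -0.81 for Cacna1i (SE 0.15, edgeR adjusted p = 0.0001927). The T-type genes Cacna1g and Cacna1h were at -1.16 (SE 0.21) and -1.29 (SE 0.18) there. PM replicate 1 had the highest and PM replicate 3 the lowest level among the first-set PM libraries for all 8 genes, with Rn45s at 12.4%, 13.7% and 17% of gene counts in PM replicates 1, 2 and 3; its part was not tested.

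In the second set 4 alpha1 genes fell, 1 rose and 3 did not pass, where 32.5% of tested genes were lower and 32.3% higher. The median log2 fold change was -0.44 over the 8 and 0.01 over all tested genes. Cacna1e fell by 2.22 (SE 0.21), Cacna1c by 1.38 (SE 0.22), Cacna1d by 0.85 (SE 0.2) and Cacna1b by 0.7 (SE 0.17) on the log2 scale. Cacna1h rose (log2 change 0.73, SE 0.21, edgeR adjusted p = 0.007354). Without vehicle replicate 5, the lowest vehicle library for this gene, Cacna1h was at 0.58 and did not pass (edgeR adjusted p = 0.08182). Cacna1a was at -0.14 (SE 0.15, edgeR adjusted p = 0.4436), Cacna1i at -0.19 (SE 0.17, edgeR adjusted p = 0.3407) and Cacna1g at 0.39 (SE 0.24, edgeR adjusted p = 0.1689).

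The difference between the sets was tested as the change in the second minus that in the first. It passed for 6 of the 8 genes, all with the second-set value the higher, and 17.5% of tested genes passed in that direction and 12.1% in the other. Over all tested genes that split was 2618 and 1810, and with DESeq2 size factors it was 2274 and 2370, while the calls of Cacna1a, Cacna1b, Cacna1d, Cacna1g and Cacna1h held. The largest was that of Cacna1h, 2.02 on the log2 scale (SE 0.28, edgeR adjusted p = 0.0002835), followed by Cacna1a with 1.61 (SE 0.21, edgeR adjusted p = 9.318e-05), Cacna1g with 1.55 (SE 0.32) and Cacna1d with 1.5 (SE 0.28). Cacna1b differed by 0.98 (SE 0.23, edgeR adjusted p = 0.006702). Cacna1i differed by 0.62 (SE 0.23, edgeR adjusted p = 0.04974), and this call was lost under most of the alternatives tried. No difference was detected for Cacna1c, at 0.63 (SE 0.3, edgeR adjusted p = 0.1346), or Cacna1e, at 0.24 (SE 0.29, edgeR adjusted p = 0.5682). Without PM replicate 1 both passed, Cacna1c at 0.95 (edgeR adjusted p = 0.0005242) and Cacna1e at 0.54 (edgeR adjusted p = 0.02652).

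**Figure D2:**
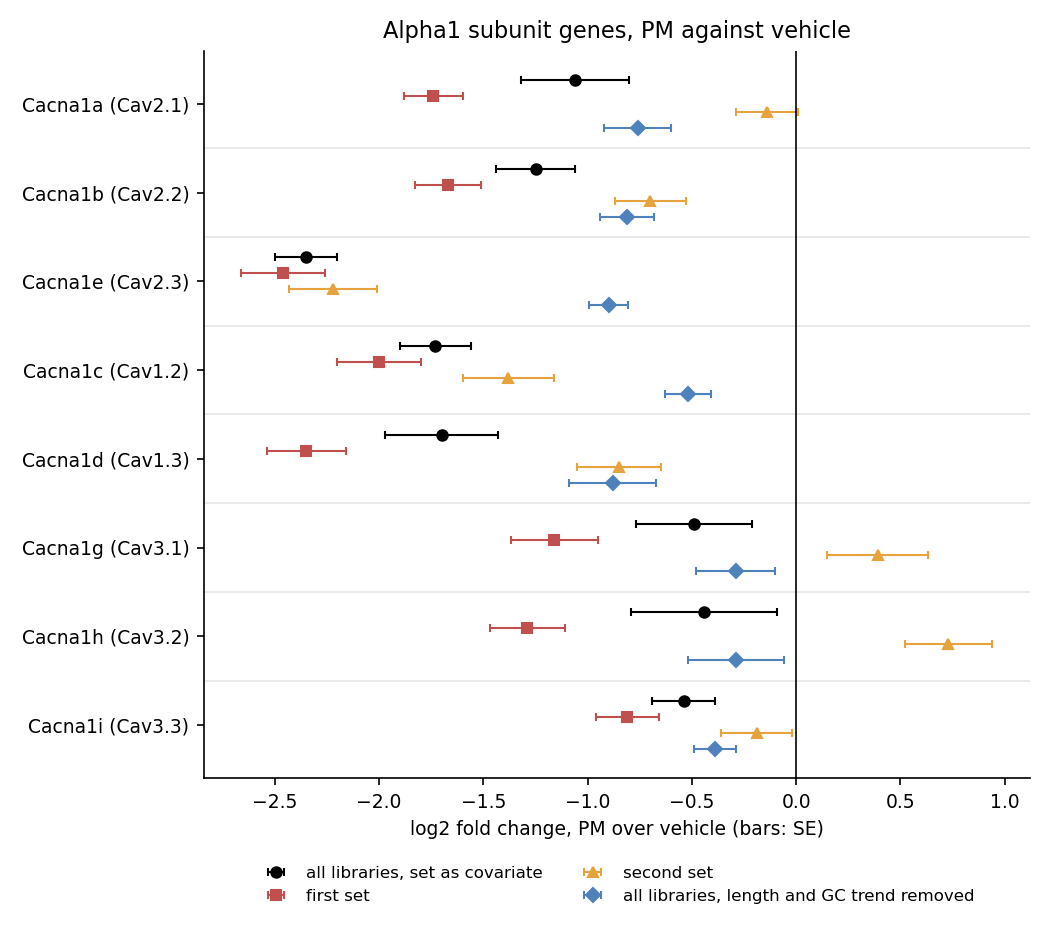
Log2 fold change of each alpha1 gene, PM over vehicle, with bars for the standard error, over all libraries (black), in the first set (red), in the second set (orange) and over all libraries after removal of the length and GC trend (blue). Cacna1g and Cacna1h lie left of 0 in the first set and right of it in the second, whereas the other 6 genes stay left of 0 in every series.

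Gene length and base composition moved with the PM change across all genes. Over 14424 genes with annotation, Spearman's rho of the log2 fold change was -0.42 with exon length and 0.366 with the GC content of the longest transcript, as a description across genes that are not independent. All 8 alpha1 genes belonged to the longest quintile of genes, 7642 bases of exon or more, where the median log2 fold change was -0.75 and 70.5% were lower. Cacna1a, Cacna1g, Cacna1h and Cacna1i also belonged to the quintile with the highest GC. The 242 genes that were both longest and highest in GC had a median of -0.26, and 40.5% of them were lower. Among the 606 longest genes of the middle GC quintile, which include Cacna1c, Cacna1d and Cacna1e, the median was -0.75 and 72.4% were lower. Cacna1b stood among 384 longest genes of the next higher GC quintile, with a median of -0.42 and 54.2% lower.

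**Figure D3:**
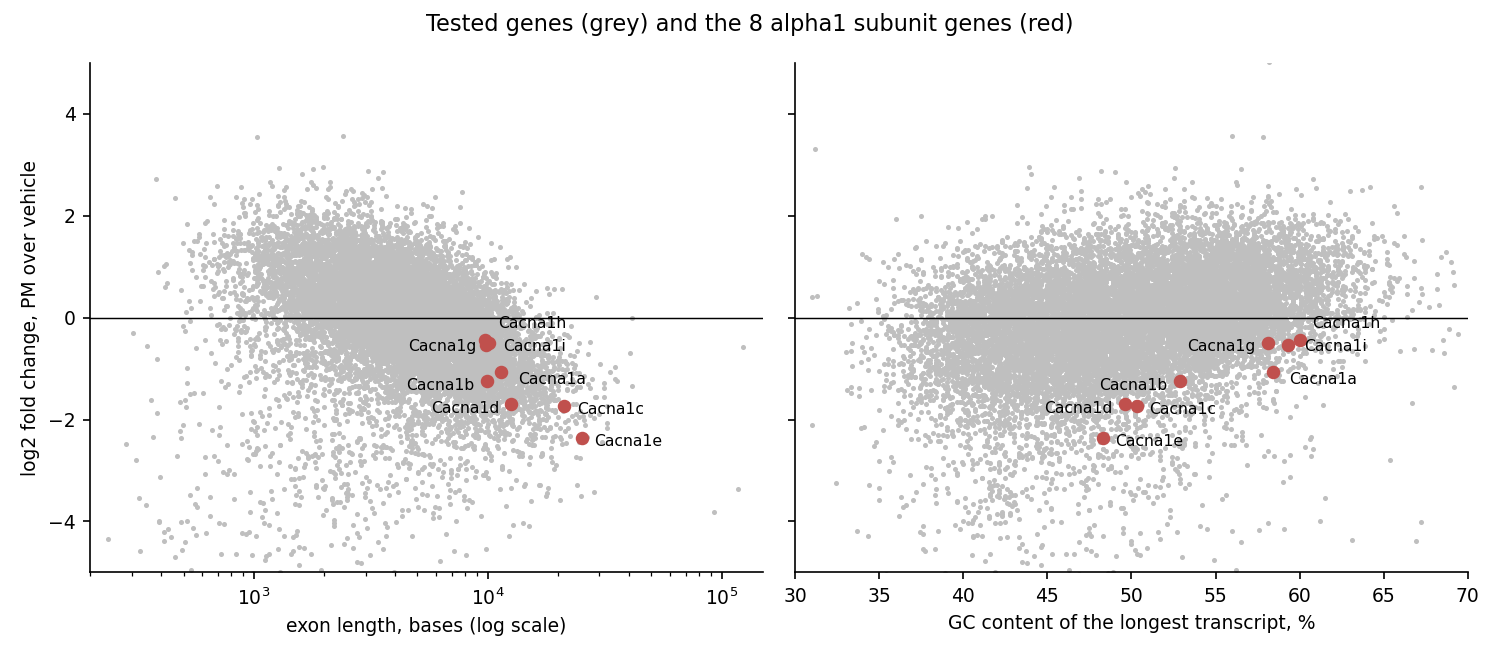
Log2 fold change, PM over vehicle, of tested genes (grey) and of the 8 alpha1 genes (red), against exon length in bases on a log scale (left) and GC content of the longest transcript in percent (right); genes beyond the axis limits are not drawn. All 8 alpha1 genes lie in the longest quintile, from 7642 bases of exon upward, and Cacna1e, the lowest of them at -2.35, is also the longest and the lowest in GC.

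The length and GC trend was therefore also removed within each library before the test. The same 6 alpha1 genes were then lower, 0 were higher and 2 did not pass, with 29.3% of 14424 genes lower and 37.2% higher. The median of the 8 was -0.64 and that of all these genes 0.07. Cacna1e was at -0.9 (SE 0.095), Cacna1d at -0.88 (SE 0.21), Cacna1b at -0.81 (SE 0.13) and Cacna1a at -0.76 (SE 0.16). Cacna1c was at -0.52 (SE 0.11) and Cacna1i at -0.39 (SE 0.1). Cacna1g, at -0.29 (SE 0.19, edgeR adjusted p = 0.1891), and Cacna1h, at -0.29 (SE 0.23, edgeR adjusted p = 0.2791), again did not pass.

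In the second set with the trend removed, Cacna1b (-0.46), Cacna1c (-0.38), Cacna1e (-0.95) and Cacna1i (-0.37) were lower and Cacna1h (0.52) was higher, with 26.2% of genes lower and 31.9% higher. Cacna1d lost its call (-0.16, edgeR adjusted p = 0.3603), and Cacna1i gained one (edgeR adjusted p = 0.04514). In the first set all 8 were again lower, with 30% of genes lower and 38.6% higher, from -1.43 for Cacna1d to -0.41 for Cacna1i. Cacna1e was at -0.85 there. The difference between the sets was then 1.42 for Cacna1h, 1.27 for Cacna1d, 1 for Cacna1a, 0.97 for Cacna1g and 0.63 for Cacna1b. These passed, and those of Cacna1c (0.25), Cacna1i (0.04) and Cacna1e (-0.1) did not.

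Levels of different genes were compared per kilobase of exon. In vehicle libraries Cacna1e led with 44.4 CPM per kb, and no library of it overlapped with Cacna1a, at 27.9 CPM per kb. Cacna1b followed at 24 CPM per kb, within reach of Cacna1a, and lay apart from Cacna1c at 16 CPM per kb. Cacna1h, at 15.9 CPM per kb, overlapped with both Cacna1c and Cacna1d, and Cacna1d was at 12.3 CPM per kb. Cacna1i, at 9.71 CPM per kb, and Cacna1g, at 6.85 CPM per kb, closed the order, each apart from the gene above it.

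In PM libraries the order by the mean of both sets was Cacna1a at 15.8, Cacna1h at 15, Cacna1b at 10.9, Cacna1e at 8.72, Cacna1i at 7.01, Cacna1g at 5.97, Cacna1c at 5.03 and Cacna1d at 4.53 CPM per kb. Every pair of neighbours in it overlapped across PM libraries, and this order held in neither set. First-set PM libraries had Cacna1a at 8.89, Cacna1e at 8.32, Cacna1b at 7.75, Cacna1h at 7.06, Cacna1i at 5.55, Cacna1c at 4.07, Cacna1g at 3.1 and Cacna1d at 2.48 CPM per kb. Second-set PM libraries had Cacna1h at 23, Cacna1a at 22.7, Cacna1b at 14.1, Cacna1e at 9.13, Cacna1g at 8.83, Cacna1i at 8.46, Cacna1d at 6.58 and Cacna1c at 5.98 CPM per kb. The rank of Cacna1e thus averaged 1.67 in first-set PM, 4.67 in second-set PM and 1 in vehicle libraries. Summed over the 8 genes, the level was 73 ± 29.7 CPM per kb in PM (SD, n = 6) and 157 ± 10.1 CPM per kb in vehicle libraries (SD, n = 5). By set the sums were 47.2 in PM and 163 in vehicle libraries of the first, and 98.8 in PM and 148 in vehicle libraries of the second. With the longest transcript as length, Cacna1c stood above Cacna1b in vehicle libraries.

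The makeup of the summed level also differed between the groups. T-type genes made up 37.1% ± 4.2 in PM (SD, n = 6) and 20.7% ± 0.953 in vehicle libraries (SD, n = 5). Their share lay between 32.2% and 34.4% in first-set PM libraries, between 39% and 42.4% in second-set PM libraries and between 19.6% and 21.9% in vehicle libraries, with no overlap in either set. Cav2 genes made up 49.7% ± 3.52 in PM and 61.3% ± 0.777 in vehicle libraries, and Cav1 genes 13.2% ± 0.901 in PM and 18.1% ± 0.701 in vehicle libraries. Cacna1e alone made up 13.3% ± 4.62 in PM and 28.3% ± 1.15 in vehicle libraries. These shares are relative, so the share of 1 gene moves when another changes, and no test was run on them. They were taken without removal of the length and GC trend. The T-type genes and Cacna1a belong to the highest GC quintile, where the longest genes had a median log2 change of -0.26. Cacna1c, Cacna1d and Cacna1e belong to the middle GC quintile, where that median was -0.75. The part of the trend in the shares was not tested.

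**Figure D4:**
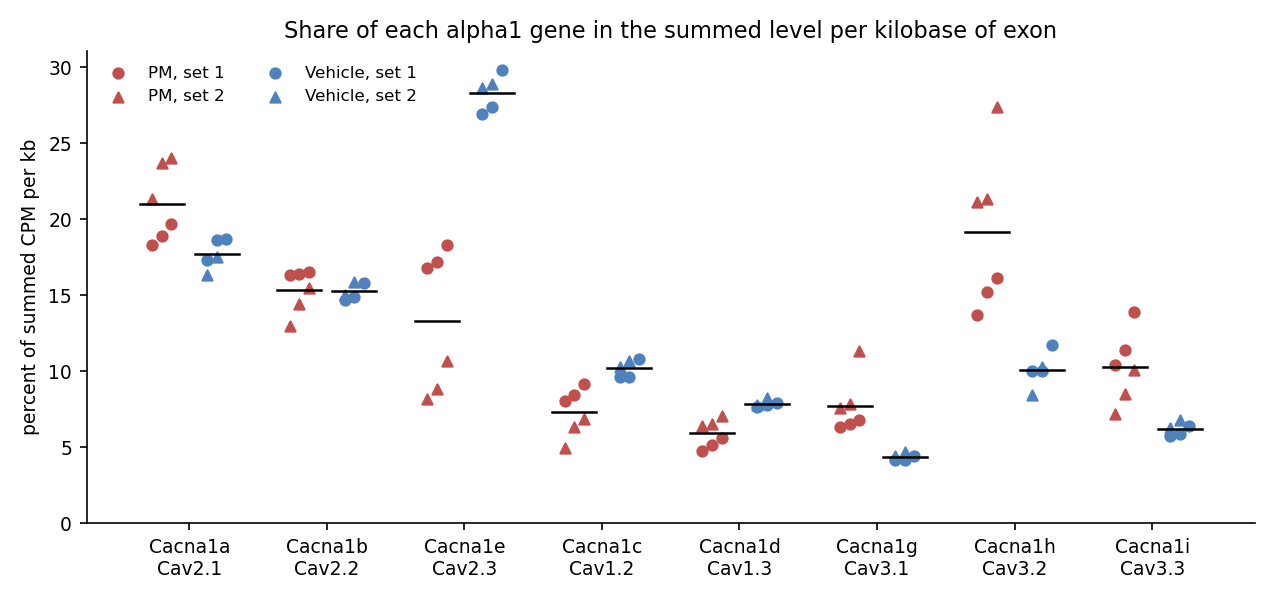
Share of each alpha1 gene in the summed level per kilobase of exon, in percent, with PM in red left of vehicle in blue, circles for the first set, triangles for the second and lines for group means. The Cacna1e share averages 13.3% in PM and 28.3% in vehicle libraries with no overlap, and the shares of Cacna1g, Cacna1h and Cacna1i are higher in every PM library than in every vehicle library.

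Genes whose levels followed each alpha1 gene most closely were found by the root mean square difference (RMS) of log2 CPM over the 11 libraries, each gene centred on its mean, among 14502 genes. For Cacna1e these were Xrn1 (RMS 0.1), an RNA exonuclease gene, and Tnr (RMS 0.131), a gene of the extracellular matrix, at log2 fold changes of -2.55 and -2.41. For Cacna1c they were Bsn (RMS 0.0915), a scaffold gene of the presynaptic active zone, and D630045J12Rik (RMS 0.112), and for Cacna1d Kmt2a (RMS 0.12) and 2410089E03Rik (RMS 0.129). Those of Cacna1a were Nav1 (RMS 0.0801) and Yeats2 (RMS 0.0934), and those of Cacna1b Zfc3h1 (RMS 0.0679) and Shank2 (RMS 0.0772), a postsynaptic scaffold gene. Among the T-type genes, Cacna1g was nearest to Setd1a (RMS 0.159) and Ccdc88c (RMS 0.162), Cacna1h to Atxn2l (RMS 0.123) and Kmt2b (RMS 0.132), and Cacna1i to Nin (RMS 0.119) and Mettl3 (RMS 0.12). Nav1 is a neuron navigator gene and not a sodium channel gene. The likeness takes in the set and group differences that many genes share.

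The subunits that assemble with the pores did not follow one direction; over all tested genes 36.4% were lower and 32.7% higher, with a median of -0.04. Of 4 beta subunits, which bind the pore from inside the cell and aid its delivery to the membrane, 1 was higher, 2 were lower and 1 did not pass, with a median of -0.42, and with the trend removed 1 was higher, 2 lower and 1 did not pass, with a median of -0.1. Cacnb2 averaged 48.6 ± 5.52 CPM in PM and 133 ± 6.25 CPM in vehicle libraries (log2 change -1.46, SE 0.09, edgeR adjusted p = 1.458e-08). With the trend removed Cacnb2 was at only -0.25 (edgeR adjusted p = 0.01293). Cacnb4 averaged 122 ± 23.3 CPM in PM and 220 ± 6.26 CPM in vehicle libraries (log2 change -0.84, SE 0.098, edgeR adjusted p = 4.428e-06). Cacnb3 was higher, with 237 ± 23.4 CPM in PM and 137 ± 10.6 CPM in vehicle libraries (log2 change 0.78, SE 0.087, edgeR adjusted p = 3.206e-06). Removal of the trend left Cacnb3 at 0.26 (edgeR adjusted p = 0.006457). Cacnb1 was at 0 (SE 0.12, edgeR adjusted p = 0.9898), and its sign varied with the processing.

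Of 4 alpha2delta subunits, extracellular partners and, for Cacna2d1 and Cacna2d2, the targets of gabapentin, 2 were lower and 2 did not pass, with a median of -0.39; with the trend removed 2 were higher, 1 lower and 1 did not pass, with a median of 0.37. Cacna2d1 averaged 192 ± 25.9 CPM in PM and 347 ± 18.5 CPM in vehicle libraries (log2 change -0.85, SE 0.083, edgeR adjusted p = 8.544e-07). Cacna2d2 averaged 21.2 ± 4.66 CPM in PM and 32.5 ± 5.11 CPM in vehicle libraries (log2 change -0.67, SE 0.15, edgeR adjusted p = 0.001306). Cacna2d3 was at -0.12 and Cacna2d4, with 145 counts over the PM and 88 over the vehicle libraries, at 0.04. With the length and GC trend removed Cacna2d1 turned to 0.3 (edgeR adjusted p = 0.001297), Cacna2d3 to 0.44 (edgeR adjusted p = 0.0002094) and Cacnb4 to 0.04 (edgeR adjusted p = 0.6448).

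Of 8 genes named as gamma subunits, several of which are better known as auxiliary subunits of AMPA-type glutamate receptors, 6 could be tested, with 2 higher, 1 lower and 3 not passing and a median of -0.11; with the trend removed 1 was higher, 4 were lower and 1 did not pass, with a median of -0.62. Cacng2, which encodes stargazin, was higher at 79 ± 12.2 CPM in PM and 49.4 ± 4.68 CPM in vehicle libraries (log2 change 0.64, SE 0.11, edgeR adjusted p = 0.0001147). Cacng8 was higher (log2 change 0.5, SE 0.15, edgeR adjusted p = 0.008807), but turned to -0.13 with the trend removed, and Cacng5 was lower (log2 change -0.79, SE 0.12, edgeR adjusted p = 6.109e-05). Cacng3 was at -0.2, Cacng4 at -0.27 and Cacng7 at -0.02, and with the trend removed these 3 were lower at -0.63, -0.62 and -0.62. Cacng1 had 1 count over the PM and 3 over the vehicle libraries, and Cacng6 had 46 over the PM and 12 over the vehicle libraries; neither was tested.

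**Figure D5:**
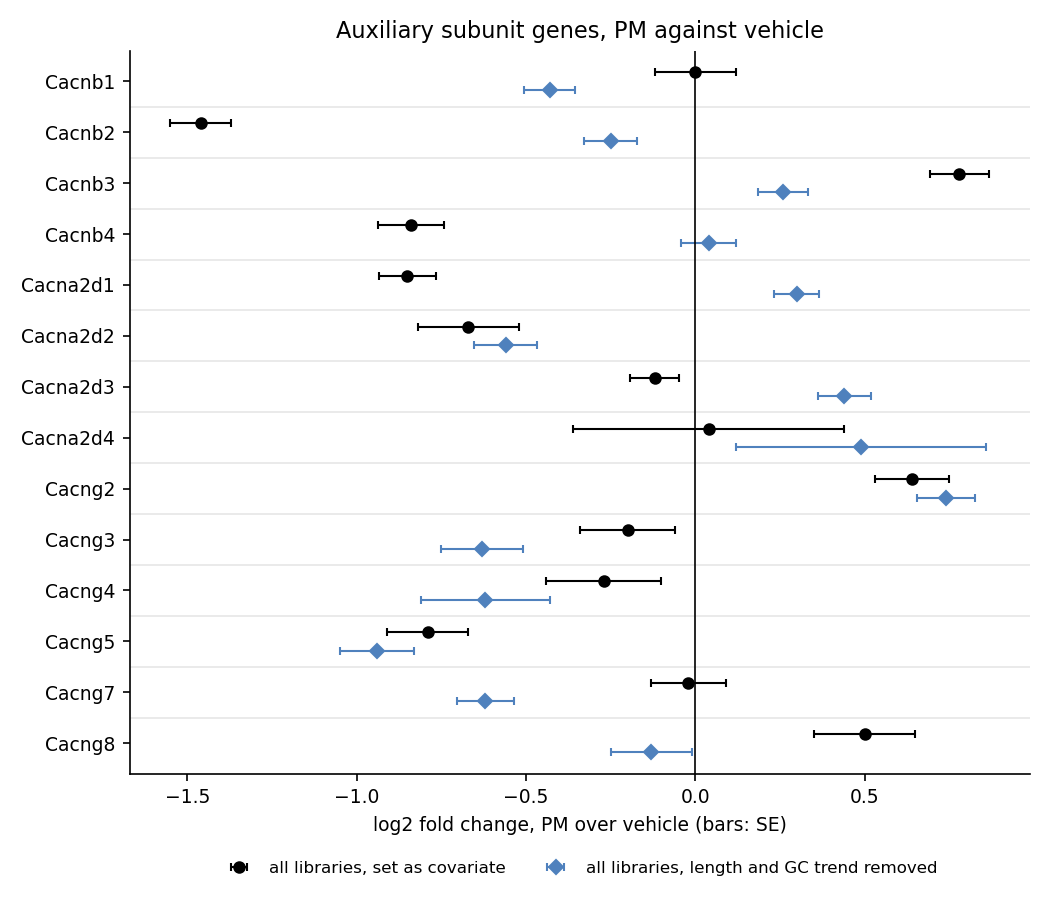
Log2 fold change of the tested beta, alpha2delta and gamma subunit genes, PM over vehicle, with bars for the standard error, over all libraries (black) and after removal of the length and GC trend (blue). Cacnb2 lies lowest at -1.46 and Cacnb3 highest at 0.78 over all libraries, and Cacna2d1, Cacna2d3, Cacnb4 and Cacng8 change side when the trend is removed.

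Other genes of the calcium pathway were followed as lists, to be read beside all tested genes, of which 32.7% were higher and 36.4% lower with a median of -0.04. Once length and GC were adjusted for, 37.2% of all genes were higher and 29.3% lower, with a median of 0.07. Of 14 partners of the Cav2 channels in transmitter release, 2 were higher, 10 lower and 2 did not pass, with a median of -0.89; with the trend removed 4 were higher and 8 lower, with a median of -0.38. The active zone scaffold Pclo had a log2 fold change of -2.32 and Rims1, which tethers calcium channels there, one of -1.93, while the SNARE gene Stx1a was higher at 1.19 and Ppfia3, which encodes liprin-alpha3, at 0.95. Of 19 genes that carry or modulate L-type signals to the nucleus, 8 were higher, 6 lower and 5 did not pass, with a median of 0.17. After removal of the trend 12 of them were higher and 4 lower, with a median of 0.46. Among them Nfatc3, a transcription factor driven by calcineurin, was at -1.59 and the kinase gene Camk4 at -1.04, while Calm2, a calmodulin gene, was at 0.78. Rrad, a small GTPase gene that inhibits L-type channels, was at 2.08 on few counts, with 1.57 ± 0.81 CPM in PM and 0.347 ± 0.281 CPM in vehicle libraries.

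Of 6 calcium-activated potassium channel genes, which turn calcium entry into repolarisation, 1 was higher, 4 lower and 1 did not pass, with a median of -1.17, and these counts were the same after removal of the trend, with a median of -0.83. Kcnma1, the BK channel pore, averaged 53.2 ± 9.44 CPM in PM and 338 ± 21.4 CPM in vehicle libraries (log2 change -2.65, SE 0.11, edgeR adjusted p = 1.22e-09). The SK channel gene Kcnn3 was at -1.85, and Kcnn1, another SK channel gene, was higher at 1.21. Of 8 Kv4 channel genes and partners 2 were higher, 4 lower and 2 did not pass (median -0.19), with Kcnip2 at 0.81, Kcnip3 at 0.45, Dpp6 at -0.87 and Kcnd3 at -0.79. After removal of the trend 3 were higher and 2 lower (median 0.04), and Kcnip3, at 0.08 (edgeR adjusted p = 0.4661), and Kcnd3, at -0.16 (edgeR adjusted p = 0.1471), no longer passed.

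Of 11 genes of calcium buffering and clearance, 2 were higher, 6 lower and 3 did not pass, with a median of -0.57. After removal of the trend 3 were higher, 4 lower and 4 did not pass, with a median of -0.08. The sodium-calcium exchanger Slc8a1 was at -2.42 and the plasma membrane pump Atp2b2 at -1.21, while the buffer genes Pvalb and Calb1 were higher at 1.5 and 0.5. Of 11 genes of calcium release from stores and store-operated entry, 2 were higher, 5 lower and 4 did not pass, with a median of -0.34. The balance turned after removal of the trend, with 3 higher, 2 lower, 6 not passing and a median of 0.1. The ryanodine receptor genes Ryr2 and Ryr3 were at -1.55 and -1.43, and with the trend removed neither passed, at -0.04 and -0.25. Of the pores of store-operated entry, Orai2 was higher at 1.12, and Orai3 at 0.48, whose call was lost after removal of the trend, at 0.03 (edgeR adjusted p = 0.8442).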

How the data were processed

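Each deposited file lists, for 1 library, the count of every gene symbol, in whole numbers that the authors did not normalize, for 11 hippocampus libraries (6 PM and 5 vehicle). Per the submitters' processing notes, reads were handled with HTSeq 0.9.1, STAR, Trimmomatic 0.36, FastQC 0.11.9, Picard 2.9.2 and SAMtools 1.9, and builds mm10 and hg19 are named; the annotation and the strand setting are not given in the sources used here. Ribosomal RNA was depleted before library preparation, per the labels' protocols, whereas the molecule field names polyA RNA. The 5 summary lines of each file, such as reads with no feature, took 28.6% to 42.4% of counts in PM and 65.7% to 67.3% in vehicle libraries and were left out of every fit.

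Counts were fitted with edgeR 4.0.16 in R 4.3.3 (TMM scaling, filterByExpr with a minimum count of 10, robust quasi-likelihood test, two-sided, Benjamini-Hochberg adjustment over 14982 genes, threshold 0.05), with the set as covariate; for the changes within each set and their difference, the 4 combinations of set and group were fitted together. SE is the absolute log2 fold change over the root of F. The script was checked on simulated counts. Exon length and GC came from GENCODE M21, matched to 95.7% of symbols, and the trend was removed with offsets from splines with 5 degrees of freedom for each library. A count of 0 allows up to 3 counts, 0.177 to 0.266 CPM in PM and 0.238 to 0.49 CPM in vehicle libraries; this covers counting error only. No 2 libraries of a group were within sampling noise (lowest chi-square per degree of freedom 2.01, for vehicle replicates 1 and 3), so none was merged. Vehicle replicate 2 was at 12.6 and 12.9 to these, of its own set. To vehicle replicates 4 and 5, of the second set, it was nearer, at 5.43 and 5.19.

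The 8 genes and all gene lists were chosen with earlier results of these data known. Besides the 8, the text names every beta, alpha2delta and gamma subunit, from each other list up to 2 genes higher and 2 lower with the largest change past the threshold, at least 1 CPM on average and the same sign in both sets, and the 2 nearest genes of each alpha1 gene (prior count 2). Rn45s, Lars2, Malat1, Chdh, Tpsg1 and Gm16183 were added after values were seen. Alternatives were DESeq2 1.42.0 size factors and test, no filter on low counts, leaving out the counts of Rn45s, Lars2, Mir6236 and Malat1, no set covariate, each set fitted alone, the length and GC trend, the longest transcript as length, a replicate block and leaving out each library.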

Additional observations from a re-analysis of the deposited data

Results flagged for a closer look

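Of 92 groups of libraries examined, 1 gene and 1 treatment at a time, 3 had a lone library apart from the rest, and chance alone gives about 1 in 20. Kcnip3 in PM replicate 4 was at 82.8 CPM, against 98.4 to 106 CPM in the other PM libraries. In vehicle replicate 4, Cacnb2 was at 123 CPM, against 134 to 139 CPM in the other vehicle libraries, and Kcnip2 at 109.7 CPM, against 123 to 128 CPM.

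Changes that differed between the sets, second minus first, on the log2 scale and by the edgeR test of the difference, were 1.61 for Cacna1a, 0.98 for Cacna1b, 1.5 for Cacna1d, 1.55 for Cacna1g, 2.02 for Cacna1h and 0.62 for Cacna1i. Cacna1g and Cacna1h changed sign between the sets, with -1.16 and -1.29 in the first and 0.39 and 0.73 in the second. The family's Cacna1f differed by 2.32 on few counts.

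Among auxiliary subunits the differences were 0.56 for Cacnb1, -0.49 for Cacnb4, 0.78 for Cacna2d2, 1.89 for Cacna2d4, 0.48 for Cacng2, 0.63 for Cacng3 and 0.81 for Cacng8. Of these subunits, whose differences passed, Cacnb4 alone had the lower value in the second set, with -0.62 in the first and -1.11 in the second. With the trend removed none of these auxiliary differences passed. That of Cacnb4 was then at -0.33 (edgeR adjusted p = 0.05131), that of Cacng8 at 0.49 (edgeR adjusted p = 0.05878) and that of Cacnb1 at 0.07 (edgeR adjusted p = 0.7114). Among the other named genes they were 0.6 for Ppfia3, 0.52 for Pclo, -0.59 for Calm2, 0.52 for Kcnip2, -0.78 for Calb1 and 1.76 for Ryr3. Over all tested genes 17.5% differed with the second-set value the higher and 12.1% with it the lower.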

How the results depend on the processing

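The 6 alpha1 genes that fell over all libraries stayed lower and past the threshold under all 19 alternatives, which gave -0.76 to -1.29 for Cacna1a, -0.81 to -1.38 for Cacna1b, -0.52 to -1.85 for Cacna1c, -0.88 to -1.92 for Cacna1d, -0.9 to -2.49 for Cacna1e and -0.39 to -0.63 for Cacna1i. Leaving out 1 library at a time gave 0 to 1 alpha1 genes that rose in the second set, and a difference between sets with 1653 to 3151 genes higher and 747 to 2461 lower, the lowest of each without vehicle replicate 5; with all libraries these were 1, 2618 and 1810. For the difference between sets, Cacna1e turned to -0.1 with the trend removed and ranged from -0.02 without PM replicate 6 to 0.54 without PM replicate 1, and Cacna1i was past the threshold in 3 of 16 alternatives, with 0.04 once the trend was removed. The unfiltered fit moved the median of all genes to -0.11, against 0.01, for this difference and to 0.06, against -0.09, in the first set. Among auxiliary subunits, removing the trend turned Cacnb1 to -0.43, Cacnb4 to 0.04, Cacna2d1 to 0.3, Cacna2d3 to 0.44 and Cacng8 to -0.13. With 1 library left out, Cacnb1 ranged from -0.08 to 0.1, Cacna2d4 from -0.27 to 0.28 and Cacng7 from -0.09 to 0.04. Cacng7 was at 0.01 with the DESeq2 size factors or test, 0.05 without Rn45s, Lars2, Mir6236 and Malat1 and 0.08 without the filter. Per kb of the longest transcript, PM levels were 8.09 for Cacna1c and 14.7 for Cacna1e, vehicle levels were 40.1 for Cacna1a, 25.8 for Cacna1c, 16.1 for Cacna1d, 75.1 for Cacna1e, 8.28 for Cacna1g and 18.9 for Cacna1h, and 4 of 8 genes kept their rank in PM. Same-numbered libraries correlated at -0.176 to -0.00501, each library centred on the mean of its group and set. With so few libraries in each group and set, this cannot decide whether replicate numbers pair the samples. With the replicate block 6 alpha1 genes were again lower, with Cacnb1 at -0.05, and with the block and the trend removed 7 were, Cacna1g among them (-0.43, edgeR adjusted p = 0.04359), with 3629 genes lower in all, Cacnb1 at -0.47, Cacnb4 at 0.06, Cacna2d1 at 0.32, Cacna2d3 at 0.45 and Cacng8 at -0.16. Cacnb2, at -0.25 (edgeR adjusted p = 0.06636), did not pass with the block and the trend removed. Beyond the samples or genes each alternative leaves out, the cause was not tested. Depth limits Cacna1f, Cacna1s, Cacng1, Cacng6, Cacna2d4 and Rrad.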
